A study of Rattus norvegicus with 12 samples.

Results

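The lecticans and their binding partners in the perineuronal net matrix were followed as 9 genes in the basolateral amygdala of rats given sucrose snacks. The genes were the lecticans Vcan, Bcan, Ncan and Acan, the link protein gene Hapln1, the tenascins Tnr and Tnc, the phosphacan gene Ptprz1 and the reelin gene Reln. Every probe set whose platform annotation gave exactly 1 symbol, equal to one of these, was taken, which gave 19 probe sets for the 9 genes out of 31042 probe sets and 14217 genes in all. Vcan had 5 of them, Hapln1 3, Bcan, Acan, Ptprz1 and Reln 2 each, and Ncan, Tnr and Tnc 1 each. The genes were selected on results of these arrays, with the measured differences between sucrose and control known, so these differences are given as a description.

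Sucrose rats had an extra bottle of 30% sucrose, up to 4 mL, 2 times a day for 14 days, and control rats had an extra bottle of water on the same schedule. All were singly housed male Long-Evans rats of 2 to 3 months and 225 to 250 g with free chow and water, killed on the morning of day 15. Tissue of both sides from 2 rats of a group was pooled for each sample, so 24 rats gave 6 sucrose and 6 control pools, each hybridised to 1 Affymetrix array, an array of short DNA probes grouped into probe sets. A deposited value is the signal of a probe set on an array over the mean of the 6 control arrays, here on the log2 scale, so 0 is the control mean and no absolute level is kept. The tissue label therefore could not be checked against levels of marker genes, and levels of different genes could not be compared.

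Lecticans are large proteoglycans that bind hyaluronan at one end and tenascins at the other, with chondroitin sulfate chains between. Link proteins lock the bond to hyaluronan, and together these molecules form the diffuse matrix of the brain and the dense perineuronal nets that surround many inhibitory neurons and some excitatory ones. In the amygdala of rodents such nets are known for their part in the persistence of fear memories.

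Of the 19 probe sets, 12 were higher and 7 lower in sucrose by sign, with a median difference of 0.02, against -0.01 over all probe sets. The differences of 17 were under 0.15 in size. The exceptions were 2 of the 5 Vcan probe sets, both higher in sucrose. With limma and Benjamini-Hochberg adjustment over all 31042 probe sets, 0 of 19 had an adjusted p under 0.05, and over all probe sets the share was 0%. At an unadjusted p under 0.05 there were 2 higher members, with a background of 4.5%, and 0 lower ones, with a background of 3.07%. A test without shared variances on the same values also gave 2, and 0 after adjustment. Only 1 member, a Vcan probe set, had groups that did not overlap, where 0.296% of all probe sets had sucrose arrays above every control array. Leaving out sucrose array 4 made the count at an unadjusted p under 0.05 4, and so did leaving out control array 2. The backgrounds above are those of the main fit. None was taken with an array left out, so these counts cannot be set against one. Because the genes were picked with this contrast known, nothing follows from the counts and shares given here.

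**Figure D1:**
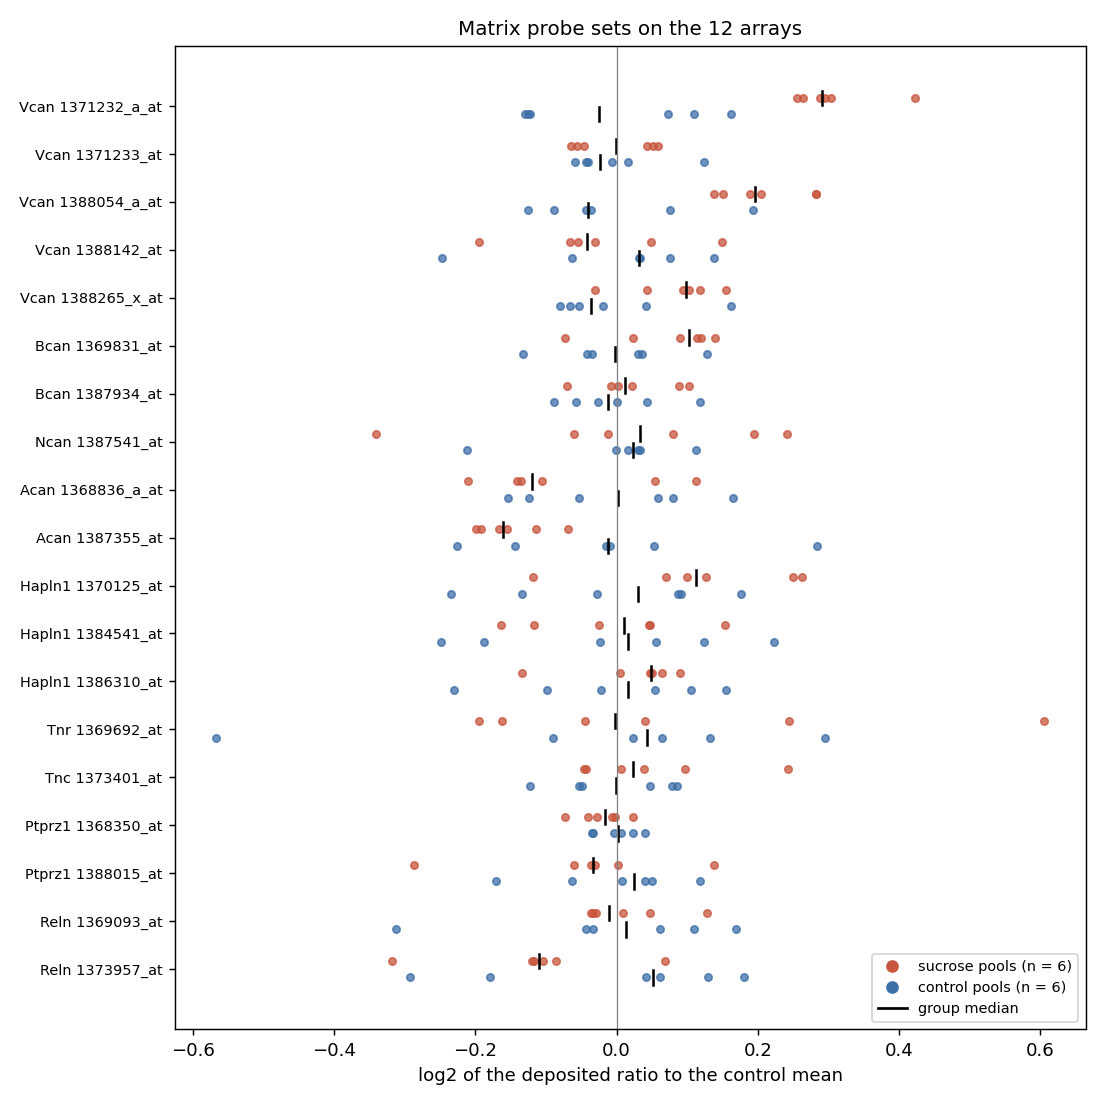
Log2 ratio to the control mean (x axis) of the 19 probe sets (y axis) on the 12 arrays, with sucrose pools in red above control pools in blue and a black bar at each group median. The Vcan probe set 1371232_a_at is the one row without overlap, with sucrose arrays from 0.26 to 0.42 and control arrays from -0.13 to 0.16, and Tnr 1369692_at has the widest scatter in both groups.

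Vcan encodes versican, the lectican of developing and adult brain matrix, made largely by glial cells and their precursors. Its transcript is spliced into forms that carry or lack the domains to which chondroitin sulfate chains are attached. The probe set 1371232_a_at had a lowest log2 ratio of 0.26, a median of 0.29 and a highest of 0.42 on the sucrose arrays, and -0.13, -0.02 and 0.16 on the control arrays. All 6 sucrose arrays lay above all 6 control arrays, and the highest was sucrose array 1. The difference was 0.31 ± 0.06 (SE, n = 6 pools per group), a ratio of 1.24, with an adjusted p of 0.231 in limma. This was also the lowest adjusted p over all 31042, but Benjamini-Hochberg adjustment can give several probe sets the same value. It is therefore not a rank by p. Without sucrose array 1 the difference was 0.29 with an adjusted p of 0.457 in limma. In bulk tissue, a different number of cells of a type and a different amount of RNA per cell cannot be told apart.

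The second Vcan probe set, 1388054_a_at, had a lowest value of 0.14, a median of 0.20 and a highest of 0.28 in sucrose, and -0.13, -0.04 and 0.19 in controls. All 6 sucrose arrays lay above the control median and 3 of 6 above every control array, since control array 2 reached into their range. The difference was 0.21 ± 0.05 (SE), with an adjusted p of 0.376 in limma. Without control array 2 this probe set too had groups that did not overlap, which brought the members without overlap to 2. With an array left out, groups of any probe set overlap less easily, and no background was taken for this setting.

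The other Vcan probe sets had smaller differences. For 1388265_x_at the lowest, median and highest values were -0.03, 0.10 and 0.15 in sucrose and -0.08, -0.04 and 0.16 in controls, with a difference of 0.08 ± 0.05. All 6 sucrose arrays lay above the control median, and 0 above every control array. By the manufacturer's naming, the suffix of this probe set means that some of its probes can also match other sequences, while the suffix of the 2 high ones means that their probes match alternative transcripts of 1 gene. The groups overlapped across their ranges for 1371233_at, with -0.06, -0.001 and 0.06 in sucrose and -0.06, -0.02 and 0.12 in controls. They did so as well for 1388142_at, with -0.19, -0.04 and 0.15 in sucrose and -0.25, 0.03 and 0.14 in controls. The probe sets 1371232_a_at, 1371233_at and 1388265_x_at were designed on the same database record, per the platform annotation, yet their differences were 0.31, -0.0008 and 0.08. Averaged over the 5 probe sets, Vcan was higher by 0.12 ± 0.04 (SE), with overlapping groups and an adjusted p of 0.509 in limma. Which transcript forms each probe set reads was not analysed here.

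**Figure D2:**
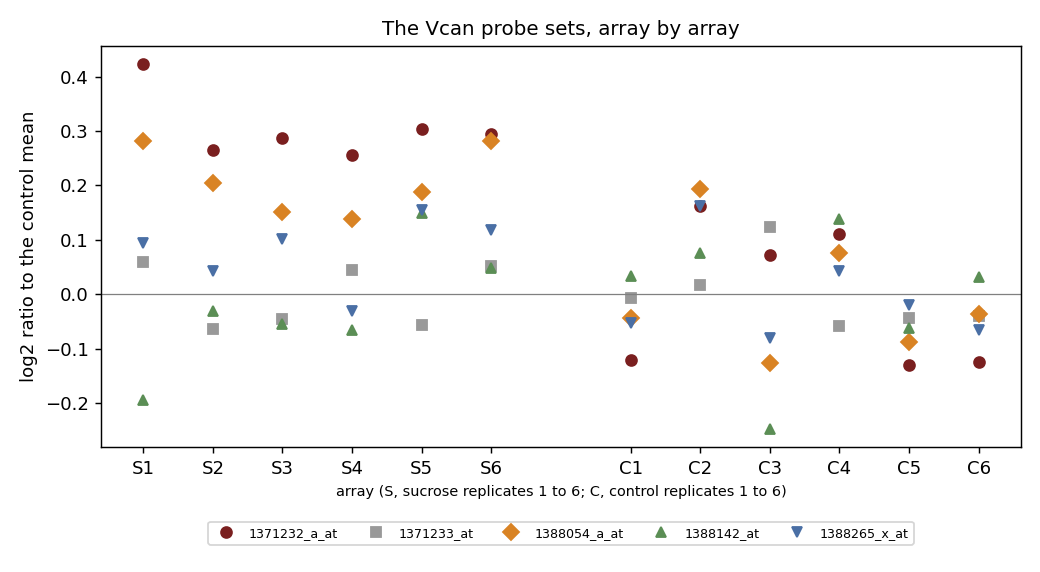
Log2 ratio to the control mean (y axis) of the 5 Vcan probe sets, told apart by colour and marker, on sucrose arrays S1 to S6 at left and control arrays C1 to C6 at right. The circles of 1371232_a_at stand at 0.26 or above on every sucrose array and at 0.16 or below on every control array, while the squares of 1371233_at and the upward triangles of 1388142_at lie on both sides of 0 in both groups.

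In the authors' deposited table of 145 probe sets, 1 of the 19 members was listed, Vcan 1371232_a_at, under its older name Cspg2. The authors' deposited table gives it a p of 0.00137, a mean ratio of 1.24 in sucrose and 1.00 in controls, at rank 11 of the 145 by p. The other Vcan probe sets and the other 8 genes are not in the authors' deposited table.

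Vcan lies next to Hapln1 on rat chromosome 2 with 0 annotated genes between them in RefSeq (assembly GRCr8). The same arrangement of a lectican and a link protein gene holds for Bcan and Hapln2 on chromosome 2, Ncan and Hapln4 on chromosome 16, and Acan and Hapln3 on chromosome 1. The 250 bases before the annotated start are shown for this neighbouring pair and for Acan, because Vcan and Acan had the highest and the lowest difference among the members and Hapln1 is the neighbour of Vcan. Sequences are from RefSeq, 5′ to 3′ on the strand of the gene, and capitals mark matches, on either strand, to a GC box (GGGCGG) or to the core of a cyclic AMP response element (TGACG). The windows are chr2:22595956-22596205 (minus strand) for Vcan, chr2:22366717-22366966 (plus strand) for Hapln1 and chr1:142390701-142390950 (plus strand) for Acan.
Vcan: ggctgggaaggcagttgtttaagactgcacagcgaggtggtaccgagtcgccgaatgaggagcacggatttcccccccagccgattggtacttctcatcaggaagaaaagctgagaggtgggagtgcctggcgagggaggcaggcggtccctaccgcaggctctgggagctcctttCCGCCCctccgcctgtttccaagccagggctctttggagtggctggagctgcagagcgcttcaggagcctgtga
Hapln1: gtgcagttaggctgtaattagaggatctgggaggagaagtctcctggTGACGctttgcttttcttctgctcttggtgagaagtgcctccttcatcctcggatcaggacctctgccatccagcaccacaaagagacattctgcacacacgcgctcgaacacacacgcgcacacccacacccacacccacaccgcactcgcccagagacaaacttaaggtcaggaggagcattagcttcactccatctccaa
Acan: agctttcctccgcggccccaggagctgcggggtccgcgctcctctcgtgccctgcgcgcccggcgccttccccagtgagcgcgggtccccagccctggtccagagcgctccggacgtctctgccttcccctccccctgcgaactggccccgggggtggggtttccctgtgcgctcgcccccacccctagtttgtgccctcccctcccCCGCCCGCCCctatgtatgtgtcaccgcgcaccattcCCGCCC
The Vcan window held 1 GC box match, the Acan window 3 and the Hapln1 window 0, where 30.5% of the 33469 promoter windows of the RefSeq table held at least 1. The Hapln1 window held 1 match to the TGACG core and the Vcan and Acan windows 0, against 18.2% of all windows, although a second annotated Vcan start had 2. A TATA box (TATAAA), searched on both strands, was in none of the printed windows and in the windows of Ncan and Tnc, against 12.9% of all. The G and C content was 61.6% for Vcan, 54.0% for Hapln1 and 73.6% for Acan, with a median of 51.2% over all windows. Among the 8 genes with a window, Tnr had the lowest content, 36.8% with 0 CpG pairs, and Reln the highest, 80.0% with 41 CpG pairs. These matches describe the letters only, as the arrays measure transcripts and not binding.

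Acan encodes aggrecan, the lectican most tightly tied to perineuronal nets. Its probe set 1387355_at was the member furthest in the other direction, with a lowest value of -0.20, a median of -0.16 and a highest of -0.07 in sucrose, and -0.23, -0.01 and 0.28 in controls. All 6 sucrose arrays lay below the control median, yet inside the control range, which control array 5 stretched upward and control array 4 downward. The difference was -0.14 ± 0.07 (SE), with an adjusted p of 0.686 in limma. It was -0.08 without control array 5 and -0.18 without control array 4. The other Acan probe set, 1368836_a_at, had values of -0.21, -0.12 and 0.11 in sucrose and -0.15, 0.003 and 0.16 in controls, a difference of -0.07 ± 0.07. Both Acan probe sets were thus lower by sign and neither separated the groups.

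Bcan encodes brevican, the most abundant lectican of the adult brain, made by astrocytes and neurons. The probe set 1369831_at had values of -0.07, 0.10 and 0.14 (lowest, median, highest) in sucrose and -0.13, -0.002 and 0.13 in controls, a difference of 0.07 ± 0.05 (SE). The probe set 1387934_at had -0.07, 0.01 and 0.10 in sucrose and -0.09, -0.01 and 0.12 in controls, a difference of 0.02 ± 0.04. In both, 5 of 6 sucrose arrays lay above the control median and the ranges nearly coincided.

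Ncan encodes neurocan, a lectican that is abundant during brain development. Its probe set 1387541_at had values of -0.34, 0.03 and 0.24 in sucrose and -0.21, 0.02 and 0.11 in controls, a difference of 0.02 ± 0.09 (SE). The group medians were close, while the spread within groups, an SD of 0.17 around the group means, was wider than that of 92.8% of all probe sets, whose median was 0.09. The sucrose group held both the lowest array, sucrose 2, and the highest, sucrose 1.

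Hapln1 encodes the link protein that joins lecticans to hyaluronan and on which compact nets depend in mice. Its probe set 1370125_at had values of -0.12, 0.11 and 0.26 in sucrose and -0.23, 0.03 and 0.18 in controls, a difference of 0.12 ± 0.08 (SE). Here 5 of 6 sucrose arrays lay above the control median. The other probe sets of Hapln1 had differences of 0.0001 ± 0.08 (1384541_at) and 0.03 ± 0.06 (1386310_at). For 1384541_at the values were -0.16, 0.01 and 0.15 in sucrose and -0.25, 0.02 and 0.22 in controls. For 1386310_at they were -0.13, 0.05 and 0.09 in sucrose and -0.23, 0.02 and 0.16 in controls. Control array 5 was the lowest of all 12 in each of the 3 probe sets.

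The tenascins are large glycoproteins that crosslink lecticans. Tnr encodes tenascin-R, a component of nets, and Tnc encodes tenascin-C, which is high in development and after injury. The Tnr probe set 1369692_at had a lowest value of -0.20, a median of -0.002 and a highest of 0.61 in sucrose, and -0.57, 0.04 and 0.30 in controls. Its within-group SD of 0.30 was above that of 99.1% of all probe sets, the highest among the members, with sucrose array 1 at the upper end and control array 5 at the lower. The difference of 0.10 ± 0.15 (SE) was below this spread, and leaving out sucrose array 1 turned it to -0.0002, as leaving out control array 5 turned it to -0.004. Tnc 1373401_at had -0.05, 0.02 and 0.24 in sucrose and -0.12, -0.0006 and 0.09 in controls, a difference of 0.05 ± 0.05. Its highest array was sucrose 5, and the other sucrose arrays stayed within 0.10.

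Ptprz1 encodes a receptor tyrosine phosphatase whose secreted form, phosphacan, is itself a matrix proteoglycan that binds tenascins. The probe set 1368350_at had values of -0.07, -0.02 and 0.02 in sucrose and -0.04, 0.002 and 0.04 in controls, a difference of -0.02 ± 0.03 (SE). With a within-group SD of 0.03, above that of only 2.14% of all probe sets, it was the steadiest of the members. The probe set 1388015_at had -0.29, -0.03 and 0.14 in sucrose and -0.17, 0.02 and 0.12 in controls, a difference of -0.04 ± 0.06. Its low value came from sucrose array 5.

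Reln encodes reelin, a secreted matrix glycoprotein that signals through lipoprotein receptors and is made by interneurons in the adult forebrain. The probe set 1369093_at had values of -0.04, -0.01 and 0.13 in sucrose and -0.31, 0.01 and 0.17 in controls, a difference of 0.02 ± 0.07 (SE). The probe set 1373957_at had -0.32, -0.11 and 0.07 in sucrose and -0.29, 0.05 and 0.18 in controls, a difference of -0.10 ± 0.08. In the second, 1 of 6 sucrose arrays lay above the control median, but the ranges of the groups were alike.

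How the members moved together from pool to pool was described after the group means had been taken away, so that the contrast between groups does not enter. Each value below is a correlation over 12 arrays that share their normalisation and their animals, and is given as a description. Of 171 pairs of member probe sets, 17 were of the same gene, of which 13 had a Pearson r above 0, with a median of 0.53. The 154 pairs of different genes had a median of 0.09, and 85 were above 0. Across genes the members therefore did not form 1 block.

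The 2 high Vcan probe sets had an r of 0.65 (Spearman's rho 0.60), and 0.32 without the 2 arrays farthest from the median of 1371232_a_at. Only 2.08% of all probe sets had an r as high with 1371232_a_at. For 1388054_a_at and 1388265_x_at r was 0.80 (rho 0.73, and 0.55 without 2 arrays). For 1371233_at and 1388142_at r was -0.66 (rho -0.49), a value that rests on 2 arrays, since it was -0.13 without them. The pairs of Bcan (0.67), Acan (0.66), Hapln1 (0.43 to 0.75), Ptprz1 (0.37) and Reln (0.60) were all above 0.

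Among pairs of different genes the highest r was that of Bcan 1387934_at with Tnc, 0.79 (rho 0.72, and 0.71 without 2 arrays). Ncan and Tnr, a lectican and a tenascin of nets, had an r of 0.77 (rho 0.86, and 0.74 without 2 arrays). Hapln1 1384541_at with Ptprz1 1388015_at had 0.76 (rho 0.83, and 0.75 without 2 arrays). The lowest was Vcan 1371233_at with Reln 1373957_at, -0.80 (rho -0.66, and -0.55 without 2 arrays). Vcan 1371232_a_at had an r of 0.66 with Tnr, 0.62 with its neighbour Hapln1 1384541_at and -0.64 with Acan 1387355_at. The value for Acan was -0.69 without 2 arrays, and that for Tnr was 0.41. Acan 1387355_at thus ran against Vcan 1371232_a_at both in the sign of the group difference and in the scatter within groups. These were the members with the lowest and the highest difference, and other probe sets of the genes varied. Acan 1368836_a_at had an r of -0.23 with Vcan 1371232_a_at. Vcan 1371233_at had 0.53 with Acan 1368836_a_at and 0.08 with Acan 1387355_at, and the remaining Vcan probe sets had -0.34 to -0.69 with Acan.

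**Figure D3:**
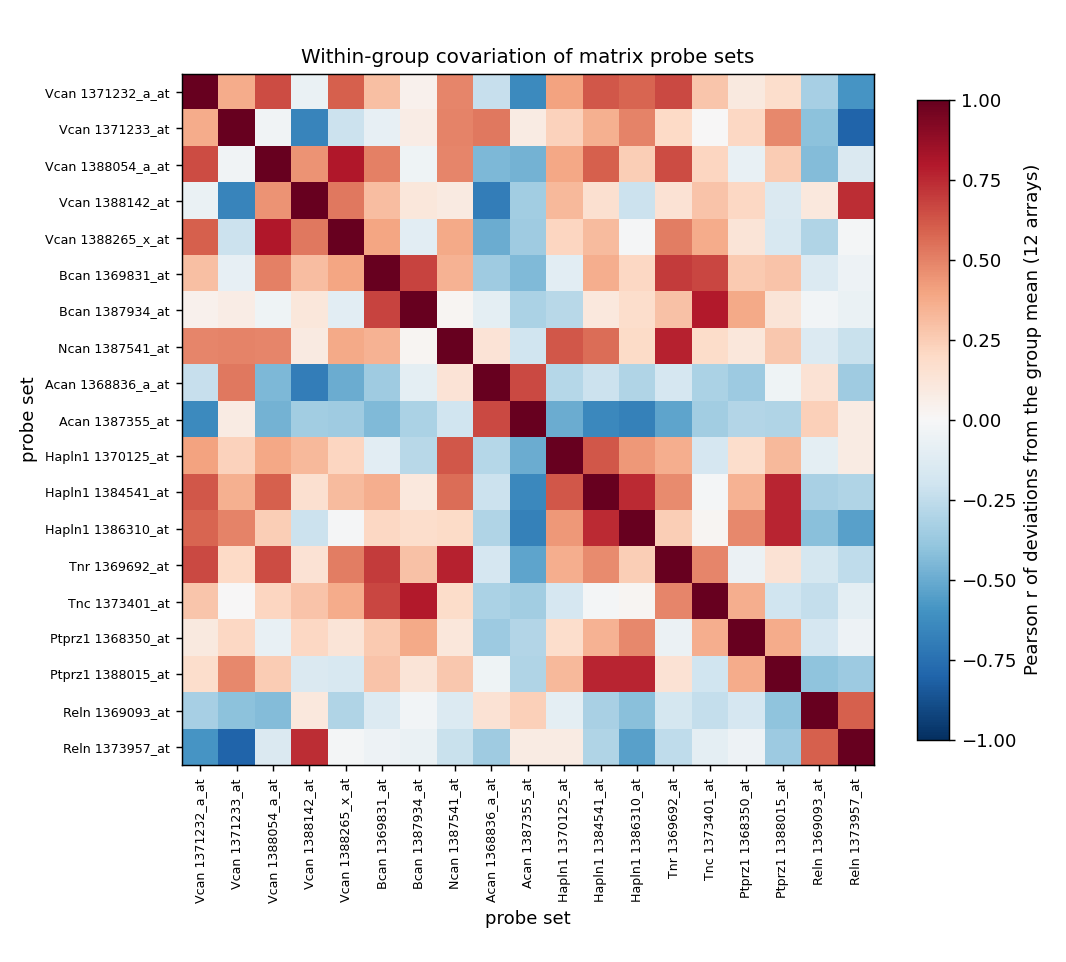
Pearson r (colour, from -1 in blue to 1 in red) between all pairs of the 19 probe sets over 12 arrays after each group mean was taken away, with probe sets on both axes. The row of Acan 1387355_at is mostly blue against Vcan 1371232_a_at (-0.64), Hapln1 and Tnr, while Ncan with Tnr (0.77) and Bcan 1387934_at with Tnc (0.79) are among the deepest red cells off the diagonal. The blue cells of Acan 1387355_at with Hapln1 (-0.50 to -0.67) and Tnr (-0.525) rest on 2 arrays. Without them r was -0.20 to 0.18 with Hapln1 and -0.05 with Tnr.

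The genes most like Vcan 1371232_a_at in this within-group scatter over 12 arrays were Gria4 (r 0.97, rho 0.94), Tbc1d23 (0.94, 0.92), Runx1t1 (0.92, 0.89), Taf3 (0.91, 0.87) and Gas6 (0.90, 0.90). Without the 2 farthest arrays r lay between 0.82 for Gas6 and 0.96 for Tbc1d23. Gria4 encodes an AMPA receptor subunit and Gas6 a secreted ligand of TAM receptors. The differences between sucrose and control were 0.13 for Gria4, 0.19 for Tbc1d23, 0.09 for Runx1t1, -0.01 for Taf3 and 0.02 for Gas6. These genes are the top of a search over the 14217 genes, Vcan left out. A search of this width over 12 arrays gives some high values of r in any case.

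Astrocytes express several matrix genes, and the mean of a list of 10 astrocyte markers moved with some members. Other list means, given below, did so too. On this list 9 of 10 genes were higher in sucrose by sign. At an unadjusted p under 0.05, 3 were higher, with a background of 5.11% of 14217 genes, and 0 passed after adjustment. Of these 3, Slc4a4 had 1 of 2 probe sets higher, Aqp4 2 of 3 and Slc1a2 2 of 2. The list mean ran from 0.06 to 0.35 on the sucrose arrays, highest on sucrose 1, and from -0.20 to 0.07 on the control arrays, lowest on control 5. With group means taken away, Tnr had an r of 0.87 with the list mean (rho 0.72, and 0.59 without 2 arrays, n = 12). Vcan 1371232_a_at had 0.69 (rho 0.71, and 0.58 without 2 arrays), Ncan 0.64 (rho 0.68, and 0.34 without 2 arrays) and Acan 1387355_at -0.50 (rho -0.18, and -0.51 without 2 arrays). The other Vcan probe sets had -0.24 (1388142_at) to 0.51 (1388054_a_at). Bcan had 0.61 and 0.33, Hapln1 0.265 to 0.595, Tnc 0.29 and Acan 1368836_a_at 0.065. Ptprz1 had -0.10 and 0.43, and Reln -0.25 and -0.56. The level of the hybridisation spike-ins was also highest on sucrose array 1 (0.18) and lowest on control array 5 (-0.12). With group means taken away, this level had an r of 0.69 with Tnr, 0.60 with Bcan 1369831_at, 0.49 with Vcan 1371232_a_at and -0.60 with Acan 1387355_at. With it as a covariate the difference of Vcan 1371232_a_at was 0.28, while that of Tnr was -0.005, that of Bcan 1369831_at 0.04 and that of Acan 1387355_at -0.10. The part of the astrocyte markers in these values was not tested.

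**Figure D4:**
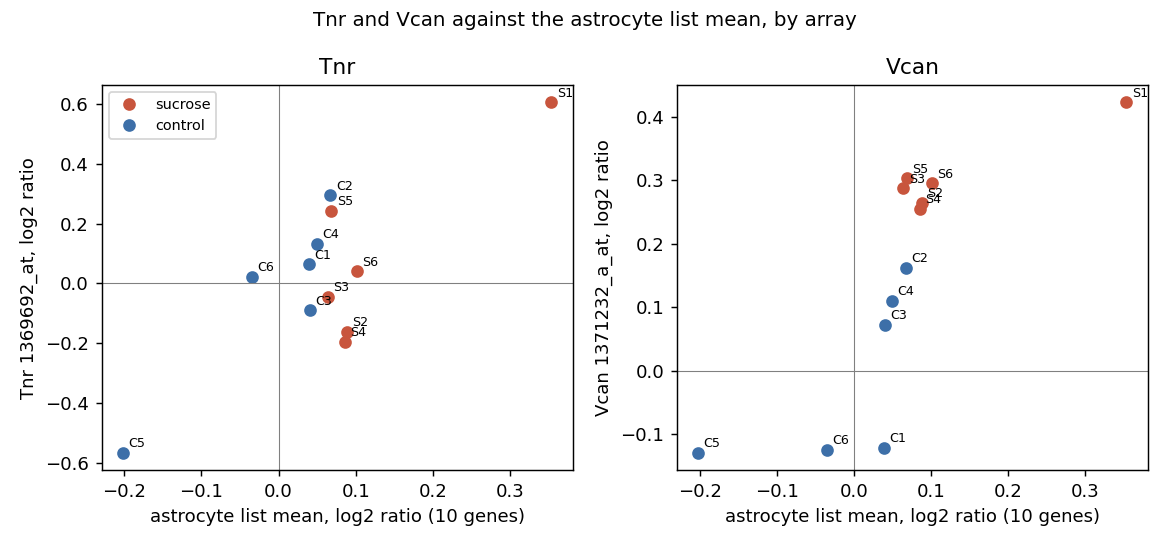
Log2 ratio of Tnr 1369692_at (left, y axis) and Vcan 1371232_a_at (right, y axis) against the mean log2 ratio of the 10 astrocyte markers (x axis) on each array, with sucrose arrays in red and control arrays in blue. Sucrose array S1 (0.61 for Tnr) and control array C5 (-0.57) stand at the ends of both panels, and the other sucrose arrays are above the controls for Vcan but mixed with them for Tnr.

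Markers of other cells that could hold these transcripts were read as list means over arrays. For oligodendrocyte precursors, known makers of versican, 7 of 9 markers were measured, with 4 higher and 3 lower by sign, 0 of them higher and 1 lower at an unadjusted p under 0.05. Their mean lay between -0.09 and 0.04 in sucrose and between -0.03 and 0.03 in controls. For parvalbumin and other interneurons, the cells most often enwrapped by nets, 5 of 9 measured markers were higher by sign, 2 of them at this threshold. The mean of the list lay between -0.03 and 0.09 in sucrose and between -0.09 and 0.07 in controls. For mature oligodendrocytes 9 of 9 were higher by sign, 2 of them at this threshold. Their mean lay between -0.17 and 0.47 in sucrose and between -0.11 and 0.09 in controls. Meningeal and fibroblast markers were lower in 6 of 6, 2 of them at this threshold. Striatal and central amygdala markers were lower in 7 of 7, 0 of them at this threshold, with a mean of -0.33 on sucrose array 1. Of 7 measured markers of pallial excitatory neurons 3 were higher and 4 lower, with 2 higher at this threshold. Over all genes the shares at this threshold were 5.11% higher and 3.19% lower. Choroid plexus markers, 4 of 5 measured, reached 1.94 on sucrose array 1, against -0.29 on sucrose array 2 and -0.36 to 0.34 on the control arrays. As ratios keep no level, none of these markers could be shown to be at 0. With group means taken away, Vcan 1371232_a_at had an r of 0.69 with the interneuron mean (rho 0.60, and 0.60 without 2 arrays). Its r was 0.53 with choroid plexus, 0.42 with meninges, 0.22 with mature oligodendrocytes and -0.30 with precursors. The other Vcan probe sets had -0.31 (1388142_at) to 0.78 (1371233_at) with the interneuron mean. For Tnr, r was 0.51 with interneurons, 0.63 with choroid plexus, 0.27 with meninges, 0.18 with mature oligodendrocytes and -0.30 with precursors. The part of these markers in the members' values was not tested.

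The rest of the pathway was read from 5 lists of 80 genes, of which 70 were measured, each at its probe set of highest variance. By sign 38 were higher and 32 lower in sucrose, with a median difference of 0.01, against -0.01 over all genes. At an unadjusted p under 0.05 in limma, 12 were higher (17.1%, with a background of 5.11% of 14217 genes) and 1 was lower (1.43%, background 3.19%). After adjustment over all probe sets 0 passed, and the lowest adjusted p was 0.376. The number higher was 9 without sucrose array 1, 10 without control array 5 and 10 with variances not shared across genes, and the number lower was 4 without sucrose array 3. Adding the hybridisation spike-ins to the model gave 10 higher, without B3galt6, Timp3 and Pafah1b1. The lists were drawn up with earlier results of these arrays known, so the shares are a description.

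Among 17 measured matrix neighbours (22 listed) 2 were higher and 0 lower at an unadjusted p under 0.05, with a median of 0.01. Both were link protein genes that lie beside a lectican gene, namely Hapln4, known to anchor brevican at inhibitory synapses of the mouse cerebellum, and Hapln2, known from the nodes of Ranvier. Hapln4 had a mean of 0.13 ± 0.04 in sucrose and -0.002 ± 0.09 in controls (SD, n = 6), a difference of 0.13 ± 0.04 (SE). Hapln2 had 0.20 ± 0.18 in sucrose and -0.002 ± 0.07 in controls, a difference of 0.20 ± 0.07. Each had 3 probe sets, of which 2 were higher, and averaged over them the differences were 0.05 for both. Hapln3, the neighbour of Acan, differed by -0.04 ± 0.04. Cspg5, which encodes the neural proteoglycan neuroglycan C, differed by 0.13 ± 0.06.

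Chondroitin sulfate synthesis had 15 of 20 genes measured, with 1 higher and 0 lower at an unadjusted p under 0.05 and a median of -0.02. The one was B3galt6, which adds a galactose of the linker that joins the chain to the core protein, with a difference of 0.10 ± 0.04 (SE). The chain polymerase gene Chsy1 differed by -0.08 ± 0.04 and the chain initiation gene Csgalnact1 by 0.08 ± 0.04. Csgalnact1 had 1 of 2 probe sets higher. By sign 5 of the 15 were higher and 10 lower.

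Among 15 lectican proteases and inhibitors, all measured, 7 were higher and 8 lower by sign, with a median of -0.003. At an unadjusted p under 0.05, 2 were higher and 0 lower. Both encode tissue inhibitors of metalloproteinases. Timp2 had a mean of 0.14 ± 0.12 in sucrose and -0.001 ± 0.07 in controls (SD, n = 6), a difference of 0.14 ± 0.05 (SE). Timp3, which also inhibits aggrecan-cleaving proteases, had 0.17 ± 0.15 in sucrose and -0.01 ± 0.16 in controls, a difference of 0.18 ± 0.08. Timp2 had 2 of 2 probe sets higher and Timp3 3 of 4. The gelatinase gene Mmp2 differed by -0.09 ± 0.06.

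Among 14 receptors and partners, all measured, 9 were higher and 5 lower by sign, with a median of 0.04. At an unadjusted p under 0.05, 4 were higher and 1 lower. Cntn1, a contactin that binds tenascin-R and phosphacan, had a mean of 0.21 ± 0.08 in sucrose and -0.004 ± 0.11 in controls (SD, n = 6). Its difference was 0.22 ± 0.05 (SE), with an adjusted p of 0.376 in limma. Ptprs and Ptprf encode receptor phosphatases of the same family, the first a known receptor for chondroitin sulfate. Ptprs differed by 0.21 ± 0.06, with 1 of its 4 probe sets higher, and the mean of the 4 was 0.04. Ptprf had 1 of 2 probe sets higher. Egfr, the epidermal growth factor receptor, differed by 0.28 ± 0.09 with 3 of 3 probe sets higher. It is the gene of these lists that the authors' deposited table holds, at a p of 0.0202 and a mean ratio of 1.21 in sucrose and 1.00 in controls. The one lower gene was Ptn, which encodes pleiotrophin, a ligand of Ptprz1, at -0.11 ± 0.04. Ptprf and Ptn were named after their values were seen.

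In the reelin pathway, with 9 of 9 genes measured, 7 were higher and 2 lower by sign, and the median was 0.09. At an unadjusted p under 0.05, 3 were higher and 0 lower, and 2 were higher with a replicate block. Dab1, the adaptor that is phosphorylated when reelin binds its receptors, had a mean of 0.18 ± 0.09 in sucrose and -0.01 ± 0.16 in controls (SD, n = 6), a difference of 0.19 ± 0.07 (SE). The adaptor gene Crk differed by 0.22 ± 0.08 and Pafah1b1, the lissencephaly gene, by 0.16 ± 0.07. For each of the 3, not all probe sets had the same direction, with 2 of 4 for Dab1, 1 of 3 for Crk and 1 of 2 for Pafah1b1. Averaged over the probe sets of a gene, the differences of Dab1 and Crk were 0.03 and 0.06. With group means taken away, Vcan 1371232_a_at had an r of 0.79 with the mean of this list (rho 0.70, and 0.87 without 2 arrays). With the means of the other pathway lists its r was -0.03 to 0.47. The other Vcan probe sets had an r of -0.44 (1388142_at) to 0.595 (1371233_at) with the reelin pathway mean. Reln itself ran against this mean, with -0.23 for 1369093_at and -0.705 for 1373957_at (rho -0.12 and -0.615).

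**Figure D5:**
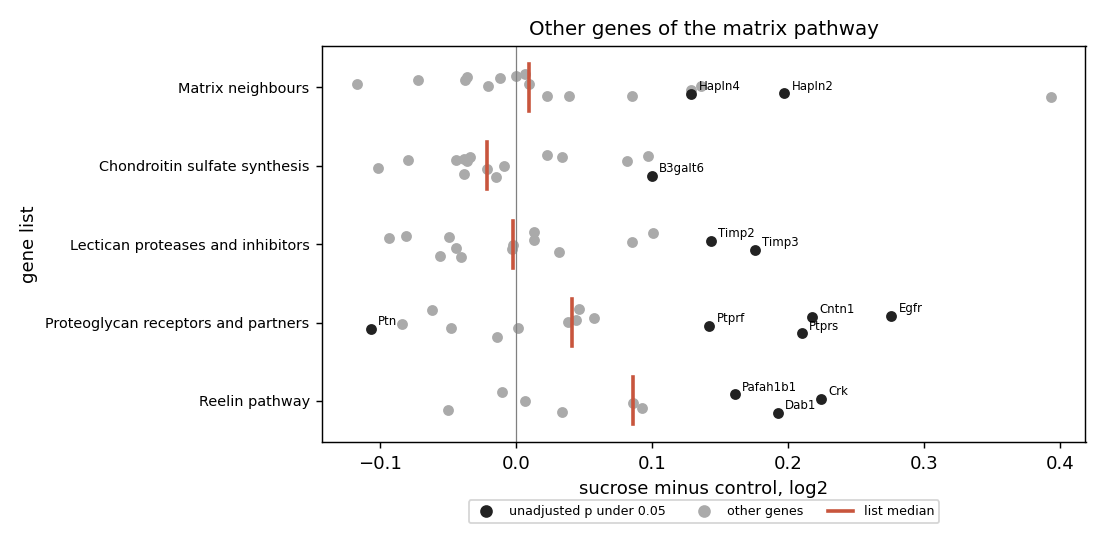
Sucrose minus control difference on the log2 scale (x axis) of the 70 measured genes of 5 lists (y axis), 1 point per gene, with genes at an unadjusted p under 0.05 in black and named and a red bar at each list median. The medians run from -0.02 for chondroitin sulfate synthesis to 0.09 for the reelin pathway, and 12 of the 13 black points lie right of 0.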

How the data were processed

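Total RNA of 12 pooled basolateral amygdala samples was labelled with biotin and hybridised to Affymetrix arrays, per the labels' protocols. The submitters' processing notes name RMA, which corrects background, equalises array distributions and summarises probes, with no version. Values were deposited as linear ratios to the mean of the 6 control arrays, which was 1 within 2e-07 for every probe set. A second deposited table gives p-values and mean ratios for 145 probe sets, per the file headers, without naming its test.

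Of 31099 probe sets, 57 manufacturer controls were left out. The platform annotation gave 1 symbol to 20826 of the other 31042, several to 436 and none to 9780, and 20758 were matched to RefSeq by gene identifier with 0 changed. Median ratios per array were 0.989 to 1.002. The number of arrays limits the precision, and signal over background is unknown.

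The contrast of sucrose with control was fitted on log2 ratios of all 31042 probe sets with limma (version 3.58.1, R 4.3.3). The model held the group alone, with moderated variances and no trend, and two-sided p-values were adjusted by Benjamini-Hochberg over the whole table, with 0.05 as the threshold. The fitting step was run on simulated data with independent noise. The condition it had to meet was on the mean size of planted differences, not on the calls. In gene lists the most variable probe set stood for a gene. Named are all members, the 3 list genes of lowest p in each list, and the 5 genes with the highest within-group correlation with the Vcan probe set of the deposited table. The members and lists were chosen with earlier results of these data known. The 23 alternatives were a replicate block, other normalisation, variance, weight and scale settings, spike-in or RNA integrity covariates, gene means, a Welch test and leaving out each array.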

Additional observations from a re-analysis of the deposited data

Results flagged for a closer look

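In 38 groups of 6 values (19 probe sets in 2 groups), 2 held a value far from the others. This is close to the share that chance gives, about 1 in 20 groups. Vcan 1371232_a_at was 0.423 on sucrose array 1, while the other sucrose arrays lay between 0.26 and 0.30. Ncan 1387541_at was -0.21 on control array 5, while the other control arrays lay between -0.001 and 0.11. Without sucrose array 1 the difference of Vcan 1371232_a_at was 0.29.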

How the results depend on the processing

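The difference of Vcan 1371232_a_at was positive under all 23 alternatives. Leaving out 1 array gave 0.29 to 0.34, and the value moved to 0.117 as the mean over the 5 probe sets of the gene. Its adjusted p ran from 0.0917 (without control array 2) to 0.759 (Welch test), so it passed under no alternative. The replicate block left the difference at 0.31 with an adjusted p of 0.482, left 2 members at an unadjusted p under 0.05 and changed no call of a member. Under it Pafah1b1 no longer passed this unadjusted threshold, so the reelin pathway had 2 higher, and the matrix neighbours had 3 higher. The replicate numbers are known from the sample titles only, which do not say what they mean. Deviations of same-numbered arrays had an r of -0.15 to 0.19, highest with the own number in 1 of 6. These values do not settle whether same-numbered pools were handled together. The count at an unadjusted p under 0.05 was 2 to 4 when an array was left out, with 4 both without sucrose array 4 and without control array 2, and 1 with gene means. The members whose groups did not overlap were 1 to 2 when an array was left out, 2 without control array 2, and 0 with gene means. No background over all probe sets was taken for the counts under these settings. The adjusted count was 0 throughout. Of 437 recomputed differences of members 4 moved by more than the replicate SD, all of Vcan with gene means, and of 345 of named list genes 6 did, all with gene means. Of 220 recomputed list counts 28 moved. Gene means average probe sets that differ among themselves. Ratios keep no signal over background, so dim probe sets could not be set aside. Each array is a pool of 2 rats, so spread between animals was not seen.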
